A study of Mus musculus with 104 samples.

Results

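The 31 genes described here make or control cholesterol and fatty acids. They were taken by name from a list, not by their values, out of 24060 genes in the RefSeq counts, and all 31 were among the 15720 genes with enough reads to test. They comprise 18 enzymes of sterol synthesis, 7 enzymes of fatty acid synthesis and desaturation, and 6 genes that sense or carry sterols or switch these enzymes on and off. The tissue is cerebral cortex of wild type C57BL/6 mice aged 6 months, sequenced in bulk as 1 library per sample. The mice belong to 13 lines, namely Tbc1d8, Gsg1l and, in no set order, Zswim6, Rgs9, Rasgef1a, Ppp1ca, Pcdh20, Morf4l1, Kdm3b, Hrk, Ece2, Dach1 and Arpp19, with 4 females and 4 males in each line. All animals are wild type by label, also those of a line that carries a gene's name. The labels tag the line as a batch, so line and batch cannot be told apart. The comparisons are females against males (52 libraries each), each line against the others (8 libraries against 96), plate 2 against plate 1 (8 libraries against 96), and each gene's level against the levels of Srebf1 and Srebf2 across libraries.

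Cholesterol hardly crosses from blood into the brain, which therefore makes its own, in adults mostly in glia and for the upkeep of membranes and myelin. The sterol route runs from acetyl-CoA through mevalonate, isoprenoids and squalene to lanosterol and then to cholesterol, and the fatty acid route starts from cytosolic acetyl-CoA made by Acly. The membrane-bound factors SREBP1 and SREBP2, encoded by Srebf1 and Srebf2, switch on both routes: SCAP escorts them out of the endoplasmic reticulum when sterols are low, and INSIG proteins hold them back when sterols are high. Since they are activated by cleavage of the protein, the level of their mRNA is not a measure of their activity.

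The smallest library, Kdm3b female 22, held 3.39 M reads, the next 23.9 M and the largest 33.5 M, and the median was 28.4 M. Reads of Xist or of Y genes went against the labelled sex in 3 libraries. Both did in Rgs9 female 43 (3 Xist and 4479 Y reads) and Rasgef1a male 40 (32425 Xist and 0 Y reads). In Rasgef1a female 39 only Xist did, with 2 Xist and 0 Y reads. These 3 libraries were kept as labelled, with the sex results also given without them. Markers of neurons summed to between 11820 and 13110 CPM (reads per 1 M reads) per library and those of oligodendrocytes to between 1498 and 2687 CPM, while those of red blood cells summed to at most 2.07 CPM, with 2 of its 5 genes at 0 in every library. The choroid plexus gene Ttr reached 282 CPM in Rasgef1a male 37 and at most 19.95 CPM in any other library. No library was a duplicate of another, since the chi-square per gene between any 2 was at least 2.06. Because this is bulk tissue, fewer cells of a type and less RNA per cell cannot be told apart.

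SREBP-driven promoters typically pair a sterol-response element with a site for the CCAAT-binding factor NF-Y. Promoters from RefSeq (build GRCm38.p6, 250 bases before to 50 after a start) were matched for 24 of the 31 genes. The 6 printed here were chosen because they hold the genes on which the account below turns. Hmgcs1 was the most abundant sterol enzyme and the member that differed most between lines. Mvk had the most CCAAT boxes, and Insig1 was a regulator whose level went with the sterol enzymes. Fasn was the fatty acid enzyme nearest to them, and Ebp and Elovl6 had negative, mostly weak correlations with most of them. Each printed promoter reads 5′ to 3′ on the gene's strand. Capitals mark CCAAT on either strand (ATTGG on the printed strand where it is reversed) and, in Hmgcs1, the run TCACCCCAC, a match to the sterol-response form TCACNCCAC.
Hmgcs1: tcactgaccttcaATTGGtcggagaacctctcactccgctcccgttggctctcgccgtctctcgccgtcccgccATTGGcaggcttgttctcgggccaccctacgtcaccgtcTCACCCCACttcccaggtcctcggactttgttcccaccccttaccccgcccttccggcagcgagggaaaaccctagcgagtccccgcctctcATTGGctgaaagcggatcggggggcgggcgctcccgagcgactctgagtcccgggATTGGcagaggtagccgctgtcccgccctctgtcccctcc
Mvk: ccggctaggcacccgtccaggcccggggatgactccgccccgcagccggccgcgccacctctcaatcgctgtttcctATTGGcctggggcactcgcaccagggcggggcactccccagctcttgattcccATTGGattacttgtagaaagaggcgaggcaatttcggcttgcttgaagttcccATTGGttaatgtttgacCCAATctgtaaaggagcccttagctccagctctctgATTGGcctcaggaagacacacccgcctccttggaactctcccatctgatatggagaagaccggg
Insig1: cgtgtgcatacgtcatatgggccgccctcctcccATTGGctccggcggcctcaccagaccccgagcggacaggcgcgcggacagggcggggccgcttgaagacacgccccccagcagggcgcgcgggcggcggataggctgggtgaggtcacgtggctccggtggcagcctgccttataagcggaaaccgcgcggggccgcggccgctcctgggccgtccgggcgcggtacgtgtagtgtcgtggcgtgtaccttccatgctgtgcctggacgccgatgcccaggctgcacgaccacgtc
Fasn: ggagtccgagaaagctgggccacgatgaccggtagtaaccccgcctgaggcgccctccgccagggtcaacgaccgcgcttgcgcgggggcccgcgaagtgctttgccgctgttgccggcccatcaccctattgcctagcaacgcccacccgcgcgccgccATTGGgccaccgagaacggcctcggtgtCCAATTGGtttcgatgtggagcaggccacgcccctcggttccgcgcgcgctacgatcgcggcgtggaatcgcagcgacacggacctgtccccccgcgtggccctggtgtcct
Ebp: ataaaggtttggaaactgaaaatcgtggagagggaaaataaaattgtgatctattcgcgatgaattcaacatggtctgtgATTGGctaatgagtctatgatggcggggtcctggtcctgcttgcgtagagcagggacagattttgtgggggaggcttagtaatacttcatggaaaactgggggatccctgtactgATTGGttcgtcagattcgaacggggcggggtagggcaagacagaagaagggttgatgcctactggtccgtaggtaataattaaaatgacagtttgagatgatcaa
Elovl6: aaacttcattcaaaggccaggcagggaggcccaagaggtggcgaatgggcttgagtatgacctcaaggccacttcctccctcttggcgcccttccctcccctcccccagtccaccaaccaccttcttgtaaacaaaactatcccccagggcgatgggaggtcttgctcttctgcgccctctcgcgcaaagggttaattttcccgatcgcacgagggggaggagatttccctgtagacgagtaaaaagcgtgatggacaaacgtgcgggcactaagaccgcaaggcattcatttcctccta

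These windows lie at chr13:119690101-119690400 on the forward strand for Hmgcs1, chr5:114444019-114444318 on the forward strand for Mvk, chr5:28071162-28071461 on the forward strand for Insig1, chr11:120824498-120824797 on the reverse strand for Fasn, chrX:8193463-8193762 on the reverse strand for Ebp and chr3:129532136-129532435 on the forward strand for Elovl6. CCAAT was found on either strand in 14 of 15 matched sterol enzymes, in 2 of 4 fatty acid enzymes and in 4 of 5 regulators. Some genes have several windows, and a gene is counted if any of them holds the motif; by window it was in 21 of 32. Of 32851 promoters of the same length in the table, 37.4% held it. TCACNCCAC was found in Hmgcs1 alone, at position -137 from the start, and in 1.24% of all promoters. The E-box CACGTG, which SREBP1 can also bind, occurred in 5 of the 24 genes, Insig1 among them (6 of 32 windows), and in 7.15% of all promoters. The GC box GGGCGG, on either strand, occurred in 21 of the 24 genes (25 of 32 windows) and in 35.7% of all promoters. The CCAAT boxes of Fasn at positions -62 and -59 overlap as 1 run. Ebp holds CCAAT at positions -170 and -55, and the Elovl6 window holds none of the 4 motifs. A match is only a run of letters, and no match says only that these letters are not in this window.

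On the FPKM scale (reads scaled by gene length and depth), which allows genes to be compared, the fatty acid enzymes were as a rule the more abundant. Scd2, the main stearoyl-CoA desaturase of brain, had 267 FPKM in the lowest library, a median of 300.1 and 333 in the highest, and ranked first of the 31. The other fatty acid enzymes had medians of 71.8 FPKM for the desaturase Fads1, 58.35 for the desaturase Fads2, 55.6 for Scd1, 46.3 for ATP citrate lyase Acly, 40.95 for fatty acid synthase Fasn and 11.3 for the elongase Elovl6.

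Among the sterol enzymes, Hmgcs1, which makes HMG-CoA, had 65.9 FPKM in the lowest library, a median of 87.1 and 99.5 in the highest, and ranked second. Msmo1, which removes methyl groups from lanosterol's products, followed with a median of 43.5 FPKM. The other 16 sterol enzymes had medians from 27.3 FPKM for squalene synthase Fdft1 and 25.6 for the desaturase Sc5d down to 6.90 for Hsd17b7 and 2.04 for Idi1. Idi1, which interconverts the isoprenoid building blocks, was the least abundant of the 31 genes and had from 111 to 262 reads per library, apart from 23 in the smallest library. Acat2 and Idi1 have close copies in the mouse genome, Acat3 and Idi2, and how reads shared with them were counted is not given in the sources used here, so their values are uncertain.

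Srebf2 was far more abundant than Srebf1, with 58.9, 64.8 and 70.0 FPKM (lowest, median, highest) against 11.1, 13.2 and 16.8 FPKM, and these ranges did not overlap. The other regulators had medians of 31.4 FPKM for Insig1, 26.4 for Scap, 15.1 for Insig2 and 8.53 for the sterol carrier Stard4.

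**Figure D1:**
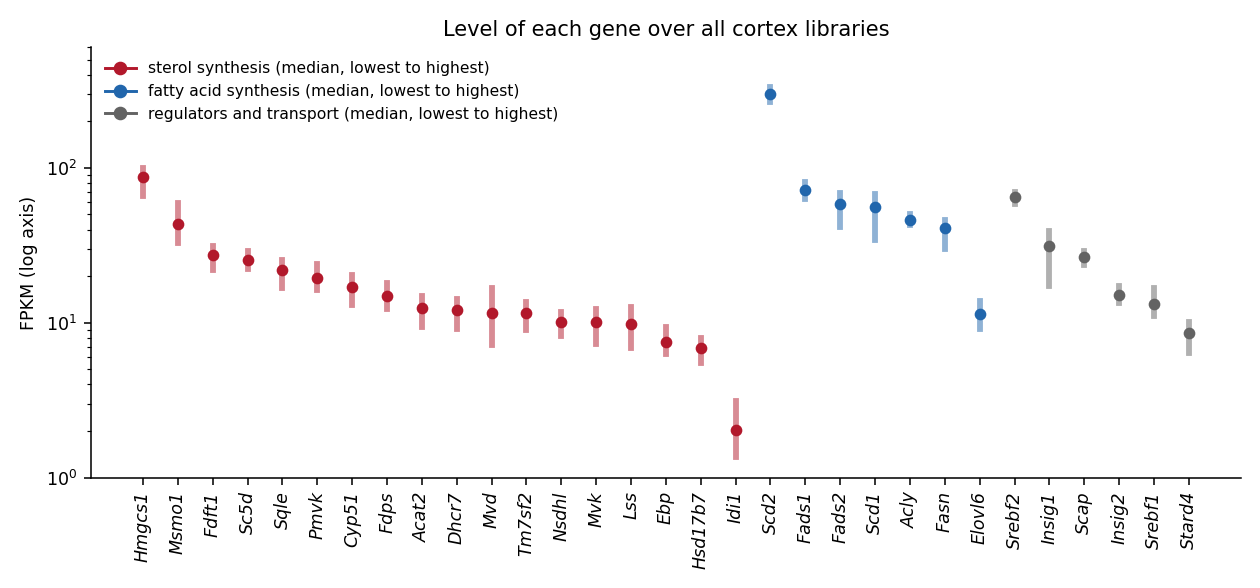
FPKM (vertical log axis) of each of the 31 genes over all libraries, grouped by arm: the point is the median and the bar runs from the lowest to the highest library. Scd2 at a median of 300.1 and Idi1 at 2.04 mark the ends of the range, and Insig1, Mvd and Idi1 have the longest bars.

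The genes differed in how widely they varied between libraries. After line and sex were removed, Insig1 had an SD of 0.24 in log2 CPM, the largest of the 31, against a median of 0.12 over all tested genes. Its FPKM differed 2.25-fold between the lowest library (17.3, Tbc1d8 male 45) and the highest (38.96, Rasgef1a male 38). Idi1 and Mvd, which makes the isoprenoid unit from mevalonate, followed with SDs of 0.185 and 0.177. At the other end, Scap, Srebf2, Acly and Scd2 had SDs of 0.052 to 0.054, at percentiles 4.34 to 5.32 of all tested genes, and these 4 genes varied at most 1.245-fold in FPKM between any 2 libraries.

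The sterol enzymes varied together. Across all libraries, with line and sex removed, the median correlation (Pearson's r of log2 CPM) over the 153 pairs of sterol enzymes was 0.49. The median over all pairs of tested genes was -0.001, with percentiles 5 and 95 at -0.30 and 0.31, and 0.777% of pairs lay above 0.49. These points share libraries and scaling, genes are not independent replicates, and the values are given as a description. A single component held 51.6% of the variance of the 18 sterol enzymes, where 5.56% would be an equal share. The largest component of any set of genes lies above an equal share, so this too is only a description.

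The tightest pair was Sqle with Dhcr7. Sqle, which oxidises squalene, and Dhcr7, which carries out the last reduction to cholesterol, had r = 0.81 (rho = 0.79). Dhcr7 with Mvd had r = 0.80, Dhcr7 with Msmo1 had 0.77, Fdft1 with Sqle had 0.76 and Hmgcs1 with Sc5d had 0.75. Sqle had the highest median r with the other 17 enzymes, 0.67, followed by Dhcr7 at 0.60 and Msmo1 at 0.58. Pmvk, phosphomevalonate kinase, and Tm7sf2, a sterol reductase, were the loosest of those with a positive median, at 0.27 and 0.33.

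Ebp, the isomerase of late sterol synthesis, was the exception. Its r was negative with 15 of the other 17 sterol enzymes, with a median of -0.20 and the lowest value, -0.43, for lanosterol synthase Lss. These 15 were the only negative pairs among the 153. Of them, only those with Lss, Idi1 (-0.335) and Acat2 (-0.306) lay below -0.302, percentile 5 over all pairs of tested genes. In Zswim6 male 50, where all 18 sterol enzymes stood above their own medians, Ebp had 14.4 CPM. In Rgs9 male 44, the library with the highest sterol mean, Ebp had 11.8 CPM, while in Rasgef1a female 40, with the second lowest, it had 15.5 CPM. Ebp lies on the X chromosome (GRCm38, 8185329 to 8193512, reverse strand), and its r with Elovl6 was 0.44.

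**Figure D2:**
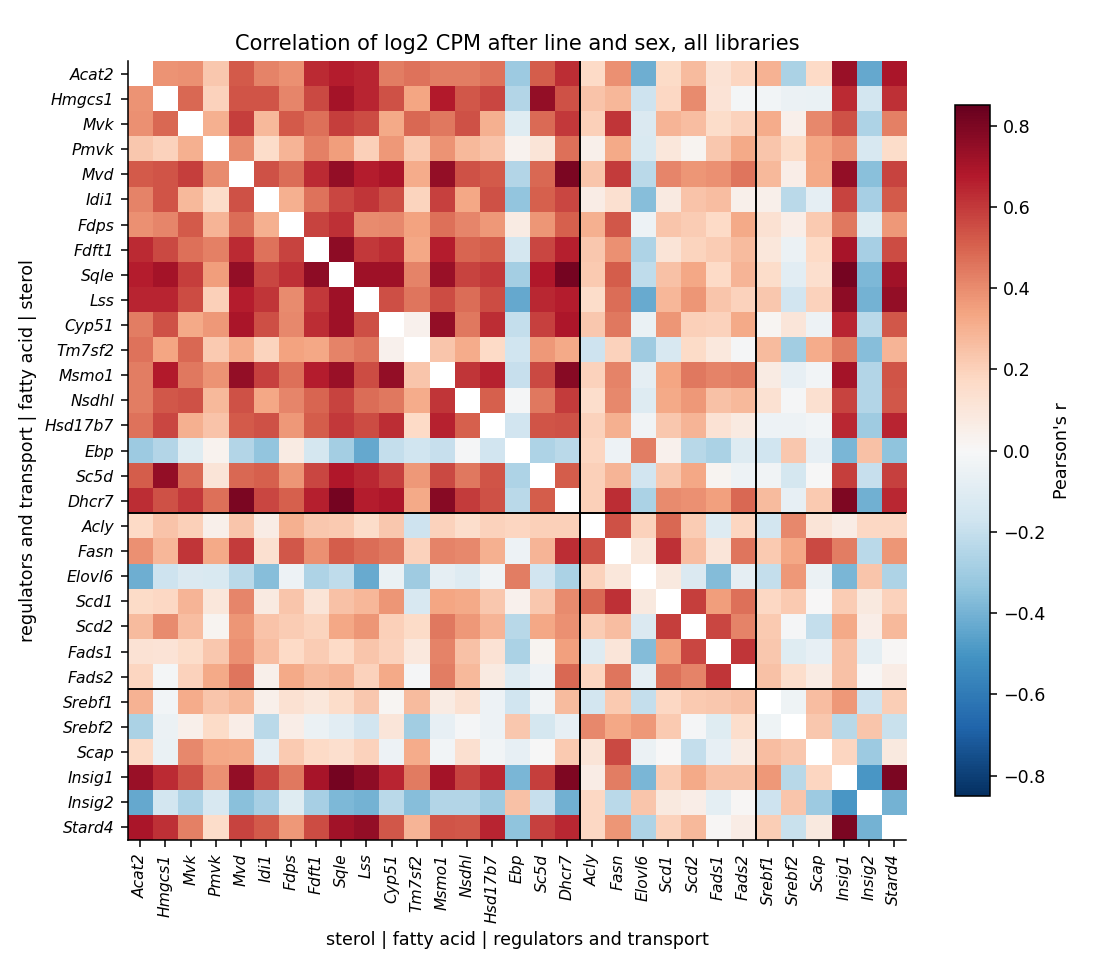
Pearson's r (colour) between each pair of the 31 genes over all libraries, from log2 CPM after line and sex were removed; black lines part the sterol enzymes, the fatty acid enzymes and the regulators. The sterol block is red except for Ebp, the Insig1 and Stard4 rows look like those of the sterol enzymes, and the Srebf2 row is pale, with a median r of -0.053 to the sterol enzymes (0.11 with marker scores removed).

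With only line and sex removed, the fatty acid enzymes formed a looser group, partly tied to the sterol enzymes. With marker scores of cell types removed as well, the medians within the 2 arms were close, as given below. Their 21 pairs had a median r of 0.26, and the 126 pairs between the arms had 0.21. The means of the 2 arms had r = 0.44 (rho = 0.37). Within the arm, Fasn with Scd1 had r = 0.62, Fads1 with Fads2 had 0.61, Scd1 with Scd2 had 0.59 and Fasn with Acly had 0.54. Fads1 and Fads2 are neighbours on the same chromosome, as are Scd1 and Scd2. Fasn was the member nearest to the sterol arm, with a median r of 0.40 to it and 0.63 with Dhcr7. Elovl6 stood apart: its r was negative with 17 of 18 sterol enzymes, lowest with Lss at -0.43, and its median r with the other fatty acid enzymes was 0.002. Its median r with the sterol enzymes, -0.168, lay above -0.302, percentile 5 over all pairs of tested genes.

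The medians moved little within the sterol arm under the other settings tried, and most within the fatty acid arm. The median within the sterol arm ran from 0.43 to 0.51, that within the fatty acid arm from 0.23 to 0.42, and that between arms from 0.15 to 0.27. Library totals had r = 0.09 with the mean of the sterol enzymes and -0.076 with that of the fatty acid enzymes. A marker score is the standardised mean of the markers' log2 CPM. The score of 5 endothelial markers had r = -0.46 with the sterol mean, that of oligodendrocyte markers 0.14 and that of astrocyte markers -0.18. With 7 marker scores removed as well, the median within the sterol arm was 0.44 and that within the fatty acid arm 0.42, so the arms then hardly differed. The 7 scores were those of oligodendrocytes, astrocytes, microglia, endothelium, striatum, choroid plexus and red blood cells.

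Insig1 and Stard4, both known SREBP targets, went with the sterol enzymes, and the 2 factors' own mRNAs had smaller correlations with them. Insig1 had a median r of 0.64 with the 18 enzymes, positive for 17 of them, highest for Sqle at 0.81, and r = 0.85 (rho = 0.85) with their mean. It had 50.6 CPM in Ppp1ca female 36, the library with the lowest sterol mean, and 101 CPM in Rgs9 male 44, that with the highest. Stard4 had a median r of 0.54, highest for Lss at 0.74. Insig2, the second anchor protein, was negative with 17 of 18, with a median r of -0.27, and had r = -0.49 (rho = -0.37) with Insig1. Scap had a median r of 0.15 with the sterol enzymes, and its highest r with any enzyme was 0.56, with Fasn. Endothelial markers had r = -0.51 with Insig1, and their part in these relations was not tested further than by the removal of marker scores, after which Insig1 with Sqle had r = 0.75.

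Srebf2 had a median r of -0.053 with the sterol enzymes, positive for 6 and negative for 12, and of 0.225 with the 7 fatty acid enzymes. With the 7 marker scores removed, its sign with the sterol enzymes turned over to 14 positive and 4 negative, with a median of 0.11, and the median with the fatty acid enzymes was 0.249. Srebf1 had a median r of 0.13 with the sterol enzymes, positive for 14 and negative for 4, and 0.22 with the fatty acid enzymes. With marker scores removed these medians were 0.031, with the same split of signs, and 0.184, and Srebf1 with Srebf2 had r = -0.037. Over all tested genes percentiles 5 and 95 of r were -0.365 and 0.41 for Srebf2 and -0.30 and 0.30 for Srebf1, so most members lie inside the range of other genes.

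**Figure D3:**
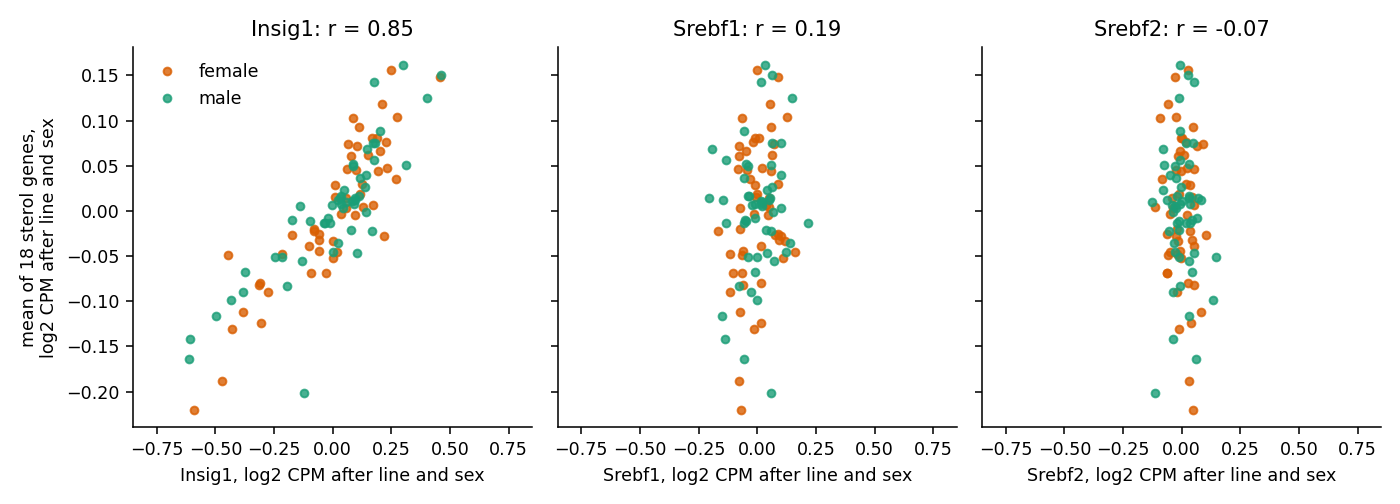
Mean of the 18 sterol enzymes (vertical axis) against Insig1, Srebf1 and Srebf2 (horizontal axes, same scale), all in log2 CPM after line and sex were removed, 1 point per library. The points of Insig1 follow a line (r = 0.85), those of Srebf1 (r = 0.19) and Srebf2 (r = -0.069) scatter widely, and Srebf2 spans the narrowest range.

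Each gene was then tested for a slope on the level of each factor, in log2 change per SD of the factor across libraries, with edgeR's quasi-likelihood test and Benjamini-Hochberg adjustment over all tested genes (adjusted p under 0.05 counts as called). With Srebf2, 5 of 30 members were called, where 28% of all genes were, so this share is no result about the members. The count was 10 in the Ensembl counts and 3 on plate 1 alone. The share of all genes called under those settings is not given here, so these counts are no result about the members. Acly, Elovl6 and Fasn rose with Srebf2, by 0.021 (SE 0.0050, adjusted p = 0.000781), 0.047 (SE 0.012, adjusted p = 0.00127) and 0.028 (SE 0.0085, adjusted p = 0.00743). Tm7sf2 and Acat2, the cytosolic thiolase, fell by 0.030 and 0.031 (adjusted p = 0.0243 and 0.0471). Acly with Srebf2 had r = 0.41 and rho = 0.35 (two-sided permutation within line and sex, p = 0.00024 and 0.00126), r = 0.39 without the 2 libraries farthest from the median and 0.41 on plate 1.

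With Srebf1, 3 of 30 members were called, where 12.3% of all genes were, so this share is no result about the members either. On plate 1 alone 1 was called (Insig1). Insig1 rose by 0.075 (SE 0.021, adjusted p = 0.0105), mevalonate kinase Mvk by 0.040 (SE 0.013, adjusted p = 0.0255) and Acat2 by 0.035 (SE 0.012, adjusted p = 0.0428). Insig1 with Srebf1 had r = 0.37 and rho = 0.35 (two-sided permutation, p = 0.00018 and 0.00024), r = 0.40 without the 2 farthest libraries and 0.37 on plate 1. None of the 7 fatty acid enzymes was called with Srebf1; Fads2 had a slope of 0.025 (adjusted p = 0.080) and Fasn one of 0.018 (adjusted p = 0.158).

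The difference between the slopes was tested in 1 fit with both factors. Of 29 members, 9 were called, where 29.4% of all genes were, a share near that background. Elovl6, Acly, Insig2 and Ebp had the higher slope on Srebf2, by 0.070 (adjusted p = 0.000479), 0.027 (adjusted p = 0.00118), 0.030 (adjusted p = 0.0194) and 0.038 (adjusted p = 0.0355). Insig1, Tm7sf2, Acat2, Stard4 and Lss had the lower one, with differences of -0.1245 (adjusted p = 0.000384), -0.057 (adjusted p = 0.00137), -0.064 (adjusted p = 0.00153), -0.054 (adjusted p = 0.0264) and -0.058 (adjusted p = 0.0267). With marker scores as terms the counts called were 3 for Srebf2, 0 for Srebf1 and 2 (Acly and Elovl6) for the difference.

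Females had lower levels of a share of these genes than males. Of the 31 members, 10 were called between the sexes, all 10 lower in females. Of all tested genes, 8.58% were called in either direction and 4.5% were lower in females. The 10 were the sterol enzymes Pmvk, Idi1, Fdps, Fdft1, Lss, Cyp51, Msmo1 and Hsd17b7, the desaturase Scd1, and Srebf1. Since the sterol enzymes vary together, these are not 10 independent differences. The log2 fold change (females over males) was below 0 for 16 of 18 sterol enzymes, 6 of 7 fatty acid enzymes and 5 of 6 regulators, with a median of -0.057 for the sterol enzymes and 0.00016 over all tested genes.

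Srebf1 had 48.2, 55.0 and 61.9 CPM in females (lowest, median, highest) and 49.5, 59.4 and 70.5 CPM in males. The groups overlapped, but 49 of 52 females lay below the male median, and the mean was lower in females in 12 of 13 lines. Its log2 fold change was -0.10 (SE 0.017, adjusted p = 7.38e-06).

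Lss had 21.5, 29.8 and 38.4 CPM in females and 24.03, 32.7 and 38.9 CPM in males. These ranges overlapped almost wholly, and the log2 fold change was -0.12 (SE 0.030, adjusted p = 0.00513), lower in females in 10 of 13 lines.

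Fdft1 had 63.8, 76.2 and 84.2 CPM in females and 69.2, 80.4 and 89.4 CPM in males. Its ranges overlapped too, and its log2 fold change was -0.0765 (SE 0.018, adjusted p = 0.00241), lower in females in 12 of 13 lines. Fdps, which makes farnesyl diphosphate, had 17.9, 21.3 and 23.9 CPM in females and 19.3, 22.5 and 25.8 CPM in males, with a log2 fold change of -0.086 (SE 0.020, adjusted p = 0.00189).

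Scd1 had 183, 261 and 315 CPM in females and 166, 274 and 330 CPM in males, with a log2 fold change of -0.094 (SE 0.030, adjusted p = 0.0362). It was the only fatty acid enzyme called. The other 6 called genes had log2 fold changes from -0.11 for Idi1 to -0.055 for Hsd17b7.

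Insig1 had as large a difference as Lss but a wider spread: 49.7, 77.7 and 94.95 CPM in females and 46.4, 87.6 and 103.5 CPM in males gave a log2 fold change of -0.12 (SE 0.044) with an adjusted p of 0.0657. Mvd, Sqle and Stard4 were just above the threshold too, with adjusted p = 0.0632, 0.0633 and 0.0659. Srebf2 had a log2 fold change of -0.0235 (SE 0.011, adjusted p = 0.168). Of the 4 members with a value above 0, Ebp (0.025, SE 0.021) and Nsdhl (0.0016, SE 0.019) are the 2 sterol enzymes encoded on the X chromosome, and Elovl6 (0.059, SE 0.025, adjusted p = 0.141) and Insig2 (0.0205, SE 0.015) are autosomal.

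Without the 3 libraries whose reads went against the labelled sex, 6 of the 10 remained called (Srebf1, Fdps, Fdft1, Lss, Pmvk and Idi1), and all 10 log2 fold changes stayed below 0. Pmvk, Fdps, Fdft1, Lss and Srebf1 were called with any 1 line left out. The count was 5 without Arpp19, Dach1, Ppp1ca, Rgs9 or Zswim6, 6 without Hrk or Rasgef1a, and up to 13 without Ece2 or Morf4l1. Markers of oligodendrocyte precursors were higher in females for 3 of 6 genes and those of oligodendrocytes for 2 of 10, with summed medians of 159 CPM in females and 151 in males, and of 2280 CPM in females and 2176 in males. Of the markers of other cells, 1 of 9 of astrocytes was higher in females, and 1 of 8 of neurons, 1 of 3 of choroid plexus (Ttr) and 1 of 5 of striatum were lower. The library with by far the most Ttr, Rasgef1a male 37 at 282 CPM, is a male. Summed choroid plexus markers had medians of 2.288 CPM in females and 2.365 in males. The striatal one, Ppp1r1b, had a log2 fold change of -0.13 (SE 0.018, adjusted p = 3.29e-08), and summed striatal markers had medians of 141 CPM in females and 147 in males. The 7 marker scores hold no precursor or neuron markers, so the part of these cells in the sex differences was not tested. That of the other cells was not tested beyond the fit with marker scores. With 7 marker scores as terms, 9 members were called, 7 of them among the 10. In the interaction of sex and line 0 of 31 were called (edgeR's quasi-likelihood test), where 0.0382% of all genes were. At an unadjusted p under 0.05 there were 7, all sterol enzymes (Cyp51, Hmgcs1, Lss, Msmo1, Sc5d, Hsd17b7 and Sqle). Without the 3 libraries against their labelled sex there were 5. These enzymes vary together, so they are not 7 separate results, and the share of all genes at this unadjusted threshold is not given here.

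**Figure D4:**
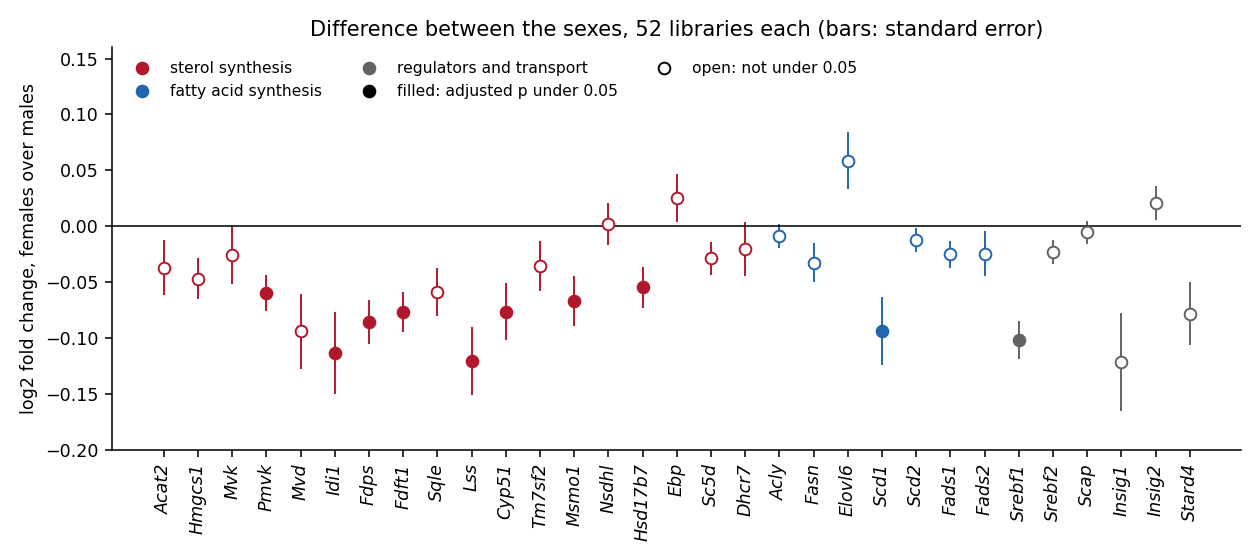
Log2 fold change of each gene, females over males (vertical axis), with its standard error, 52 libraries each. Filled points have an adjusted p under 0.05; all 10 lie below 0, between -0.12 for Lss and -0.055 for Hsd17b7.

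Hmgcs1, Srebf1 and Scd2 differed between lines. Between the 13 lines, 3 of 31 members were called, where 9.61% of all genes were, so the count is at the background share: Hmgcs1 (adjusted p = 0.0032), Srebf1 (adjusted p = 0.0114) and Scd2 (adjusted p = 0.0209). Hmgcs1 ran from a mean of 272 ± 16.7 CPM in Tbc1d8 to 321 ± 10.4 CPM in Pcdh20 (SD, n = 8 each). Srebf1 ran from 53.2 ± 4.41 CPM in Rasgef1a to 60.7 ± 4.50 CPM in Morf4l1, and Scd2 from 1565 ± 62.6 CPM in Tbc1d8 to 1675 ± 39.3 CPM in Hrk. Neighbouring lines in each order overlapped. Without Tbc1d8, 1 member was called (Srebf1), on plate 1 alone 1 (Srebf1) and in males alone 1 (Hmgcs1). In females alone 0 were called, with 5 members at an unadjusted p under 0.05 (edgeR's quasi-likelihood test). With marker scores as terms 0 were called too, with 3 members at an unadjusted p under 0.05 (same test). The share of all genes at this unadjusted threshold is not given here, so these counts are not set against a background.

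Against the mean of the other 12 lines, Tbc1d8 had 8 members called, all lower, where 12.4% of all genes were called and 6.79% were lower. They were Hmgcs1, Msmo1, Sqle, Hsd17b7 and Sc5d of the sterol arm, Scd2 and Acly of the fatty acid arm, and Stard4. Of the 18 sterol enzymes, 17 had a log2 fold change below 0 and 11 had their lowest line mean there. Hmgcs1 had 238, 276 and 287 CPM in Tbc1d8 (lowest, median, highest), against 263, 314 and 355 CPM in the other lines. All 8 libraries lay below the median of the others, though the ranges overlapped, and the log2 fold change was -0.19 (SE 0.035, adjusted p = 4.6e-05).

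Msmo1 had 59.9, 71.9 and 78.6 CPM in Tbc1d8, against 63.0, 80.1 and 108 CPM in the other lines, also with all 8 below the others' median, and a log2 fold change of -0.17 (SE 0.043, adjusted p = 0.00307). Stard4 (-0.16), Sqle (-0.11), Hsd17b7 (-0.11), Sc5d (-0.0845), Scd2 (-0.066) and Acly (-0.061) had adjusted p from 0.0177 to 0.048. Insig1 had the largest value, -0.23 (SE 0.084), with an adjusted p of 0.0629, and Srebf1 and Srebf2 had 0.034 and -0.042 and were not called. Summed endothelial markers had a median of 221 CPM in Tbc1d8 and 214 CPM in the other lines, and oligodendrocyte markers 2070 CPM in Tbc1d8 and 2232 CPM in the other lines. Striatal markers had 157.9 CPM in Tbc1d8 and 143.5 CPM in the other lines, choroid plexus markers 3.05 CPM in Tbc1d8 and 2.275 CPM in the others, and oligodendrocyte precursor markers 166.5 CPM in Tbc1d8 and 155.6 CPM in the others. For the striatal and choroid plexus sums all 8 Tbc1d8 libraries lay above the others' median. With marker scores as terms, which do not include oligodendrocyte precursors, Hmgcs1 and Msmo1 remained called. Tbc1d8 has 2 libraries on plate 2, and on plate 1 alone Hmgcs1 and Scd2 remained.

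In Gsg1l, Scap was higher, with 114, 120 and 121 CPM against 102, 113 and 124 CPM in the other lines. All 8 libraries lay above the others' median, and the log2 fold change was 0.069 (SE 0.020, adjusted p = 0.0123). Scap was the only member called in Gsg1l, where 4.86% of all genes were called higher, so this is no result about the members as a set. With marker scores as terms the call of Scap was lost. The other 11 lines had 0 members called, where 0.0347% of the tests over all genes were. Between plate 2 and plate 1, 0 members were called (edgeR's quasi-likelihood test), where 0.242% of all genes were called. At an unadjusted p under 0.05 there was 1 member, and the share of all genes at that threshold is not given here.

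**Figure D5:**
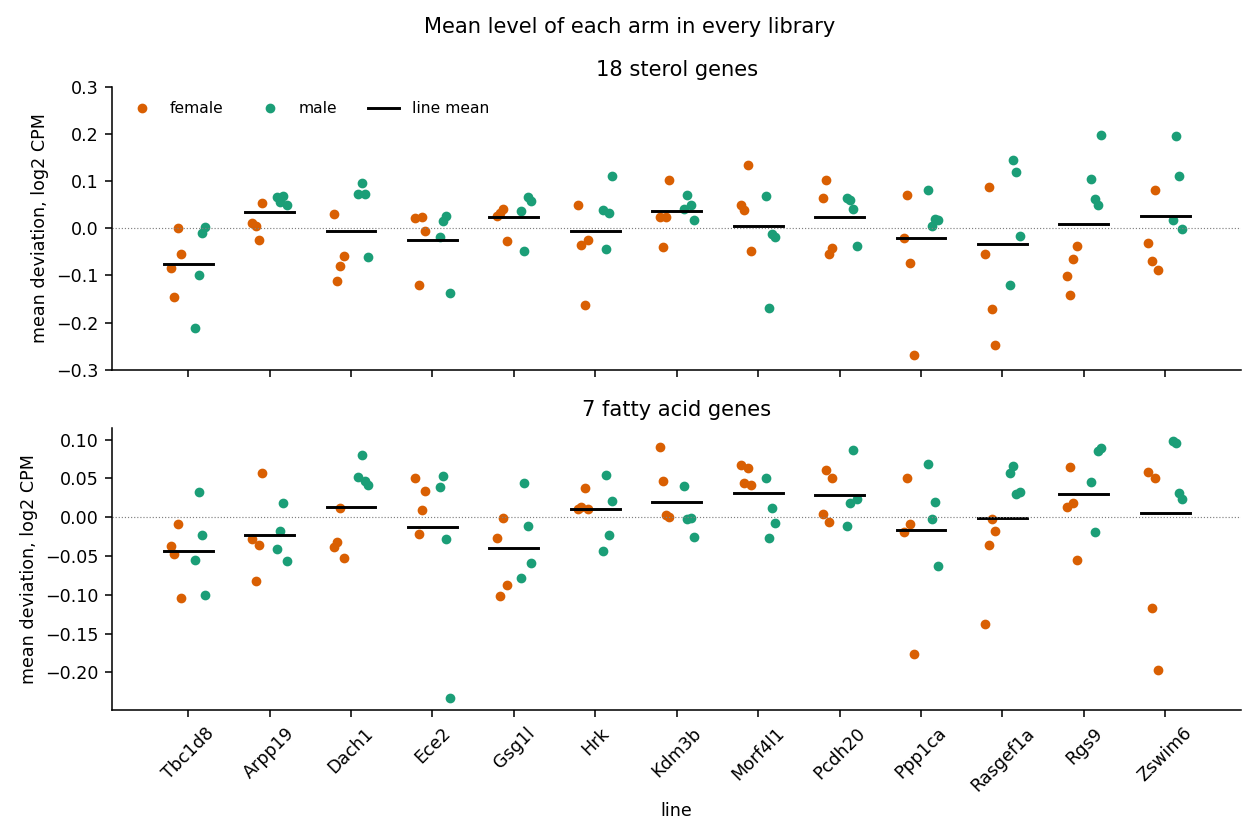
Mean deviation from the average of all libraries, in log2 CPM, of the 18 sterol enzymes (top) and the 7 fatty acid enzymes (bottom) in every library, by line, with females left and males right and a bar for the line mean. Tbc1d8 has the lowest line means (-0.075 and -0.043), yet its libraries lie within the range of other lines, and single libraries of Ppp1ca and Rasgef1a lie lowest of all in the upper panel.

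Single libraries, more than lines or the sexes, spread the sterol enzymes. The sterol mean ran from -0.27 in Ppp1ca female 36 through -0.25 in Rasgef1a female 40 and -0.21 in Tbc1d8 male 45 to 0.20 in Zswim6 male 50 and Rgs9 male 44. In each of the 3 lowest libraries 17 of 18 sterol enzymes were at or below their own median, and in the 3 highest 16 to 18 were above it. These libraries were picked by the mean of the same enzymes, so such counts were largely fixed by the choice and only describe them. Hmgcs1 had 282, 263 and 238 CPM in the 3 lowest and 349 and 355 CPM in Zswim6 male 50 and Rgs9 male 44, while Srebf2 had 305, 301 and 302 CPM in the 3 lowest and 313 and 296 CPM in these 2. The median sterol mean was -0.025 in females and 0.040 in males.

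The wider pathway was counted in lists of other genes. The lists named here were chosen with earlier results of these data known. Between the sexes, 1 of 12 genes of sterol turnover and efflux was called (Nr1h2, the sterol receptor LXR beta, lower in females by a log2 fold change of -0.048, adjusted p = 0.0445), with 0 of 15 further fatty acid genes and 0 of 6 of the isoprenoid branch, where 8.58% of all genes were. Between lines, where 9.61% of all genes were called, Cyp46a1, which makes 24-hydroxycholesterol in neurons, was the 1 of 12 called (adjusted p = 0.00927), with Acaca and Gpam as 2 of the 15 further fatty acid genes (adjusted p = 0.0219 and 0.0109) and 0 of the 6 of the isoprenoid branch. Abca1, the sterol efflux pump, rose with Srebf1 by 0.058 per SD (adjusted p = 0.000433) and fell with Srebf2 by 0.046 (adjusted p = 0.00199), and the difference was -0.100 (SE 0.015, adjusted p = 9.71e-08). With Srebf1, where 12.3% of all genes were called, 1 of the 12 turnover genes rose and 1 fell, 3 of the 15 further fatty acid genes rose and 1 of the 6 isoprenoid genes fell. With Srebf2, where 28% of all genes were called, 1 of the 15 and 1 of the 6 fell. The 5 turnover genes called with Srebf2 were Nr1h2 and Nr1h3, which rose, and Abca1, Mylip and Cyp7b1, which fell.

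Among 12793 other genes with a mean of at least 1 log2 CPM, the acetoacetate-activating enzyme Aacs, which feeds acetoacetate into sterol synthesis, had r = 0.77 with the sterol mean, at rank 3. Fbxl4 (0.69), Usp22 (0.67), Rps6kl1 (0.64), Pcsk2 (0.64), Akap1 (0.64) and Pacs1 (0.64) were also among the 10 most alike, against a median of 0.006.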

How the data were processed

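Total RNA of cerebral cortex was sequenced as stranded TruSeq libraries, per the labels' protocols. HTSeq 0.10.0 and STAR 2.7.3a, with the build GRCm38, are listed in the submitters' processing notes; the counting mode and strand setting are not given in the sources used here. The deposited RefSeq table holds whole-number read counts per gene symbol, without normalization; 4 rows with a repeated symbol were left out. The authors' deposited FPKM values gave the levels across genes and an alternative test (limma 3.58.1). The counts were tested with edgeR 4.0.16 (glmQLFTest, TMM, filterByExpr by line and sex) in R 4.3.3, with adjustment over all tested genes; DESeq2 1.42.0 was an alternative. Log2 CPM used a prior count of 2. The fits were tested on simulated data. The labels do not say how the animals of a line are related, so p-values measure the spread between these libraries. The sample descriptions carry a number that some libraries of a line share. What it stands for is not given in the sources used here. The tests and permutations did not use it and treated each library as independent. Any member could be named, with other genes from pathway lists and the 10 most like the sterol mean. The members and lists were chosen with earlier results of these data known. A few genes are not reported here.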

Additional observations from a re-analysis of the deposited data

Results flagged for a closer look

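The sterol mean, the fatty acid mean, Srebf1 and Srebf2 were checked for a library far from the rest in each of 13 lines of 8 libraries, by Dixon's test. Of these 52 groups 3 held one, where chance gives about 1 in 20. The mean of the sterol enzymes was -0.2685 in log2 CPM in Ppp1ca female 36, against -0.074 to 0.081 in the other 7 libraries of that line. The mean of the fatty acid enzymes was -0.2326 in Ece2 male 12, against -0.028 to 0.052 in the others of its line, and Fasn and Scd1 had their lowest FPKM of all libraries there, 30.1 and 34.5. Srebf2 was at 8.0981 log2 CPM in Hrk male 19, against 8.187 to 8.267 in the other 7.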

How the results depend on the processing

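Of 445 values of single called members under other settings, 23.4% lost the call. None of those with a direction reversed, while the values between lines have no direction and could not reverse. Counts between the sexes (10) ran from 5 to 13 as each line was left out, and 6 were called without the 3 libraries against their labelled sex. Females and males share title numbers, but the 52 same-numbered pairs had a median correlation of 0.017 and 8 lay over 0.1, so the numbers do not pair them; with the replicate block 11 were called, 9 of them among the 10. Counts between lines (3) ran from 1 to 4 as each line was left out (1 without Tbc1d8), and were 0 in females, 1 in males, 1 on plate 1 and 0 with marker scores as terms. For 1 line against the others the count of 9 became 4 on plate 1 and 2 with marker scores, and for Tbc1d8 the count of 8 became 2 under each. With Srebf2 the count of 5 became 10 in the Ensembl counts, 3 with marker scores and 3 on plate 1; with Srebf1 the count of 3 became 0 with marker scores and 1 on plate 1; for the slope difference the count of 9 became 2 with marker scores. The shares of all genes called under these settings are not given here. A change in a count may therefore not be particular to the members. The causes were not tested. Of 180 correlations with Srebf1 or Srebf2, 4 moved out of the 95% interval of the value reported, all with Srebf2 and with marker scores removed: Acat2 to -0.05, Sqle to 0.109, Lss to 0.037 and Dhcr7 to 0.13. The median r of Srebf2 with the sterol enzymes, -0.053, was then 0.11. The Ensembl counts hold 30 of the 31 members. Idi1 had 23 reads in the smallest library and at least 111 in the others, which limits its values there.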
